A study of Homo sapiens with 8 samples.

Results

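THSD4 and its flanks on chromosome 15 (hg19, 71.3 to 72.15 Mb) held 57 of the 60669 H3K27ac regions found in A549 cells, an established human lung adenocarcinoma line with active NRF2. Regions were made by merging overlapping peaks of 4 libraries, and every peak touching this window of 850 kb was taken. THSD4 spans 71.389 to 72.076 Mb on the plus strand, and 53 of the 57 regions touched it. The locus was chosen by its lower H3K27ac peak calls after CEBPB knockdown in these same libraries, so every difference between treatments below is a description and carries no test. The window's edges were set by position. The last region before it (chr15:71266626-71267827) had peaks in both controls only, as did the first region inside it (chr15:71304043-71305149). The last region inside (chr15:72090794-72100528) was called in all 4 libraries, and the first after it (chr15:72301929-72302306) in control 1 only.

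Chromatin was immunoprecipitated with an antibody to H3K27ac from A549 cells transfected with a control siRNA (2 libraries, control 1 and control 2), with CEBPB siRNA-1 (1 library) or with CEBPB siRNA-2 (1 library). The labels name no other agent or allele. Cells were given fresh medium 24 h after transfection and were harvested after a further 24 h. The labels do not say that the controls came from separate cultures, each siRNA has a single library, and the level of CEBPB itself is not measured by peak lists, all of which limits these libraries as a model of CEBPB loss.

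H3K27ac is an acetylated histone tail found at active promoters and enhancers, and long runs of it mark clusters of enhancers. CEBPB is a basic leucine zipper transcription factor that binds such elements in epithelial, hepatic and myeloid cells. THSD4, also called ADAMTSL6, encodes a secreted protein of the ADAMTS-like family, which has thrombospondin type 1 repeats but no protease domain. The protein associates with fibrillin microfibrils of the extracellular matrix, and the gene is known in the lung for common variants associated with airflow.

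THSD4 has several promoters, and the sequences before its starts are shown because they differ in base composition. RefSeq (GRCh38.p14) gives 3 start windows on the plus strand. Printed here are the 250 bases before each start, with CpG dinucleotides in capitals: chr15:71096644-71096893, chr15:71115221-71115470 and chr15:71546986-71547235.
most upstream start: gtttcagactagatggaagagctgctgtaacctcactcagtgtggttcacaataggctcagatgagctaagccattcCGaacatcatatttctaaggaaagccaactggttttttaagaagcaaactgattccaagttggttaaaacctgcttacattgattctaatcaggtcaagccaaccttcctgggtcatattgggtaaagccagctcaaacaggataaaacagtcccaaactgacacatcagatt
CpG-rich start: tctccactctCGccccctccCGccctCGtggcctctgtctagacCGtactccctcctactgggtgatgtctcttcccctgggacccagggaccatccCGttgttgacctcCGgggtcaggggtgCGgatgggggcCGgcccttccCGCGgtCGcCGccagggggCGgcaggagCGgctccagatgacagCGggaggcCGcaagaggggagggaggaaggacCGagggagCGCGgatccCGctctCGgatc
most downstream start: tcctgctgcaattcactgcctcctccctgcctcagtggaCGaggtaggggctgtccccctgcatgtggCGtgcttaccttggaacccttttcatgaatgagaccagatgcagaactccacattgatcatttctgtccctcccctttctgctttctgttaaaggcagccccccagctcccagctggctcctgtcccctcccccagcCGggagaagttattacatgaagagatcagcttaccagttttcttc
The CpG-rich window had 21 CpG dinucleotides and 70.4% G and C, more G and C than 80.1% of the 35116 RefSeq promoter windows. The most upstream window had 1 CpG and 41.6% G and C, and the most downstream one 3 CpG and 54.4%. In GRCh38 the CpG-rich start lay 18.6 kb and the most downstream start 450 kb beyond the most upstream one. No position was converted between builds. None of the 3 windows held the letters TTGCNNAA (a C/EBP motif), TGANTCA (AP-1) or TGACNNNGC (NRF2) on either strand. Over all RefSeq windows of this length the shares with a match were 9.05%, 6.57% and 10.9%, so no match is the usual case, and it says nothing of binding elsewhere.

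Far less of the THSD4 window was called as H3K27ac peaks after CEBPB knockdown. Called length, the number of bases under peaks, was 131 kb in control 1, 124 kb in control 2, 80.2 kb for siRNA-1 and 95.3 kb for siRNA-2. Both knockdown libraries lay below both controls, and siRNA-1 was the lower. The means were 127 ± 4.58 kb in controls and 87.8 ± 10.7 kb after knockdown (SD, n = 2 each), a difference of -39.5 kb. The knockdown SD is taken over the 2 different siRNAs and does not measure replicates of either. The difference was -50.3 kb between the libraries numbered 1 in the labels and -28.7 kb between those numbered 2. Over chromosomes 1 to 22 and X the treatments overlapped, at 67.9 and 62.1 Mb in the controls, 70.4 Mb for siRNA-1 and 61.7 Mb for siRNA-2. The window therefore held 0.192% and 0.200% of all called bases in the controls, 0.114% with siRNA-1 and 0.155% with siRNA-2.

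As a net difference, nearly all of the shorter length lay inside the gene, which also held most of the called length in the controls. Within the span of THSD4, 117 and 112 kb were called in the controls, against 68.5 kb for siRNA-1 and 83.1 kb for siRNA-2. Outside it, in the flanks, the values were 13.2 and 11.9 kb in the controls and 11.7 and 12.2 kb after knockdown, where the treatments overlapped. These flank totals hide opposite differences. With both siRNAs chr15:71304043-71305149, chr15:71345814-71348846 and chr15:72090794-72100528 had less called length than in both controls, and chr15:72082184-72085318 had more. Peaks in the window numbered 55 and 56 in the controls, 34 with siRNA-1 and 45 with siRNA-2. This gap in peak number came from weak peaks: with a −log10 q of 10 or more there were 24 and 20 peaks in the controls, 22 with siRNA-1 and 21 with siRNA-2. Called length under those stronger peaks still separated the treatments, at 112 and 104 kb in the controls against 73.8 and 85.3 kb after knockdown. The lists carry no read counts, so sequencing depth is unknown, and a missing peak is a missing call and not a measured absence of acetylation.

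**Figure D1:**
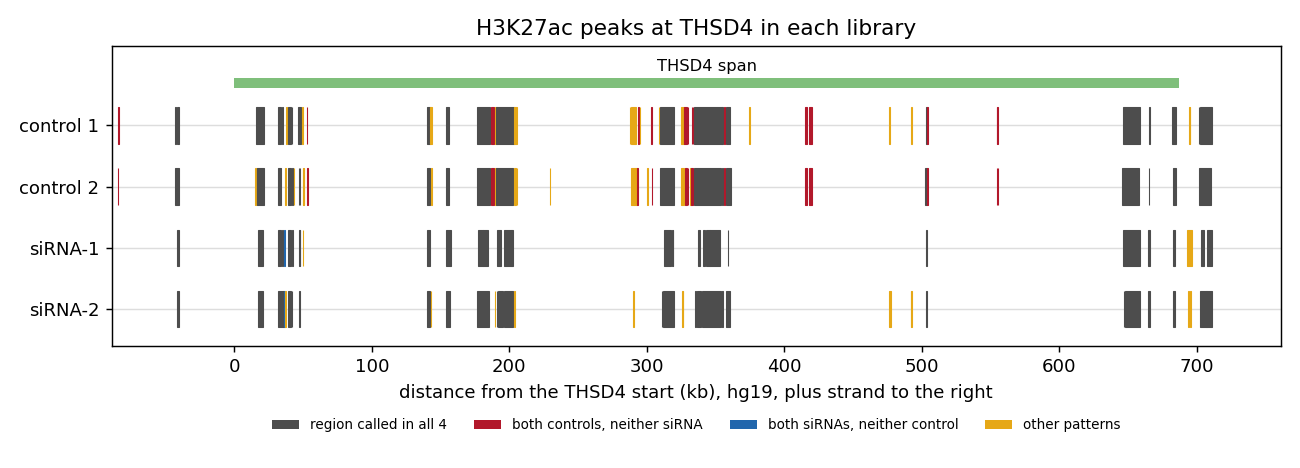
H3K27ac peaks along the THSD4 window in each of the 4 libraries, by distance from the THSD4 start in kb, coloured by the libraries in which the merged region was called. Red regions, called in both controls and with neither siRNA, number 15, and the controls' long blocks near 176 to 206 kb and 288 to 361 kb are shorter or broken with both siRNAs.

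The window was set beside the rest of the genome, cut into tiles of 850 kb from the start of each chromosome. In 27.7% of 3113 tiles with any peak, both knockdown libraries had less called length than both controls, so the order alone is common. The median tile had a control mean of 13.0 kb. Of 3111 tiles that do not overlap the window, 16 had more called length in the controls than the THSD4 window and 1 had a more negative difference between knockdown and control means, while 5 tiles differed by more than that size in the opposite direction. These ranks are in kb, and a fall in kb cannot exceed a tile's called length in the controls. The window's knockdown mean was 69.0% of its control mean. Some tiles with less called length had a larger relative fall, such as one from 77.2 to 41.8 kb. All these ranks describe a window picked for its difference. The tiles most like it, by Euclidean distance over the 4 called lengths, lay on chromosome 20 (45900001 to 46750000, 9.56 kb apart), chromosome 8 (17000001 to 17850000, 14.5 kb apart) and chromosome 18 (3400001 to 4250000, 24.1 kb apart). The chromosome 20 tile had 124 and 118 kb in the controls, 80.7 kb for siRNA-1 and 92.0 kb for siRNA-2. With no annotation of hg19 at hand, these tiles are given by position only.

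**Figure D2:**
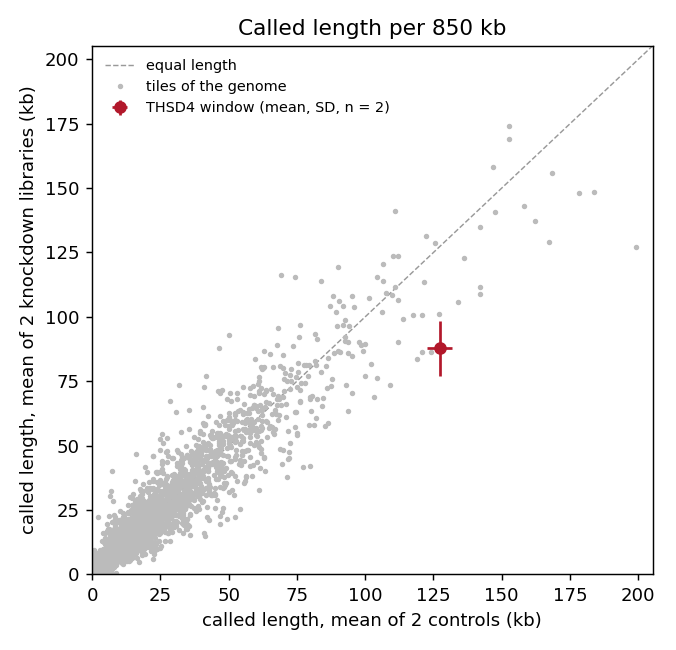
Called H3K27ac length per 850 kb, as the mean of the 2 controls (x axis, kb) and of the 2 knockdown libraries (y axis, kb), for tiles of the genome (grey) and the THSD4 window (red, mean with SD, n = 2). The THSD4 window, at 127 and 87.8 kb, lies below the dashed line of equal length and among the tiles with the most called length.

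Regions with peaks in both controls and none after either siRNA were mostly weak ones. Both controls called 40 of its regions, of which 15 (37.5%) lacked a peak with either siRNA and are termed lost here; over the genome 13.3% of such regions were lost. The locus was picked on this contrast, so the genome's share stands beside the count and nothing is read from the gap. Of the 21 window regions with a −log10 q under 10 in either control 13 (61.9%) were lost, against 30.7% of such regions in the genome. Of the 19 with 10 or more in both controls 2 (10.5%) were lost, against 3.43%. Each siRNA was set against the same controls: 21 of the 40 regions lacked a peak with siRNA-1 (52.5%, against 19.2% genome-wide) and 16 had none with siRNA-2 (40%, against 18.8%). Of the 7 regions called in both controls and in 1 knockdown library, 6 had their peak with siRNA-2 (85.7%, against 51.8% of 3686 such regions genome-wide). The count of lost regions depends on each control, being 27 without control 1 and 23 without control 2. Fewer calls are then asked of a region, and regions are also merged anew without the peaks of that control. The count was 3 when peaks within 10 kb were joined first.

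Lost regions were 402 to 2731 bp long with a median of 914 bp, and 14 of the 15 (93.3%) lay in THSD4, as did 37 of the 40 regions called in both controls (92.5%). Their fold enrichment at the summit, the authors' value relative to the background of that library, was 2.92 to 7.68 in control 1 and 3.26 to 7.61 in control 2. Fold enrichments depend on each library's depth and background, so they are shown to describe peaks within a list and not to measure a change between lists. By −log10 q the lost regions had a median percentile of 28.2 among all peaks of control 1 and 30.01 among those of control 2.

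The 3 strongest lost regions by the lower −log10 q of the controls lay together in an isolated cluster 415 to 420 kb into the gene. They were chr15:71803813-71804851, chr15:71805053-71805811 and chr15:71807161-71808975. Together they had 3.19 kb called in control 1 and 3.35 kb in control 2, and no peak with either siRNA. Fold enrichments in control 1 were 7.68, 7.68 and 4.17, and in control 2 they were 7.61, 7.13 and 7.34. The 2 upstream regions were the lost regions of the window with a −log10 q over 10 in both controls, at 24.1 for each in control 1, and 26.8 and 16.9 in control 2. The next regions beyond this cluster began at 476 kb, so no library had a peak from 420 to 476 kb. The most downstream RefSeq start is 450 kb from the most upstream one in GRCh38, and the builds were not aligned here.

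Of the remaining strongest lost regions, chr15:71892759-71893568 had 810 bp called in control 1 and 564 bp in control 2. It adjoins chr15:71891718-71892678, which kept a peak in all 4 libraries. That peak was 837 and 961 bp long in the controls, 844 bp for siRNA-1 and 683 bp for siRNA-2. Its −log10 q, each within its own list, was 31.9 and 21.4 in the controls, 4.11 for siRNA-1 and 3.40 for siRNA-2, so the knockdown calls were weak. The region chr15:71716201-71718150 had 1950 bp called in control 1 and 1141 bp in control 2. Its nearest neighbours were chr15:71713693-71716006, called in both controls and, of the siRNAs, only with siRNA-2, and the lost chr15:71718605-71719094. The region chr15:71575380-71578110 (2560 and 2181 bp) followed the kept chr15:71565260-71575267. Downstream its nearest neighbour was chr15:71578541-71579278, called in both controls and, of the siRNAs, only with siRNA-2. The weakest lost region was chr15:71692131-71693044, enriched 2.92-fold in control 1 and 3.76-fold in control 2. A further lost pair lay at 555 kb, with 0.771 and 0.795 kb called in the controls.

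A single region was gained, meaning that it was called with both siRNAs and in neither control. It was chr15:71425028-71425771, with 260 bp called with siRNA-1 and 744 bp with siRNA-2, enriched 3.13-fold and 5.76-fold. This was 5% of the 20 window regions called in both knockdown libraries, against 13.6% in the genome. With 1 member, the share is set by a single call. The count was 2 without control 1, 3 without siRNA-1, 5 with reciprocal overlap of 50%, and 0 at a −log10 q of 5 or more or with no peak allowed within 1 kb.

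Much of the shorter length came from regions that all 4 libraries called. These 18 kept regions had 103 and 99.0 kb called in the controls, against 76.6 kb for siRNA-1 and 87.8 kb for siRNA-2, while the lost regions held 12.8 and 12.7 kb in the controls. In 11 of the 18 (61.1%) both knockdown libraries had less called length than both controls, against 25.6% of kept regions in the genome. In 2 (11.1%) both had more, against 26.9%. Knockdown length was a median of 83.0% of control length in the kept regions of the window and 101% in those of the genome. Summits stayed close: the best summits of a kept region lay within a median of 271 bp of each other across the 4 libraries, and within 1767 bp at most.

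**Figure D3:**
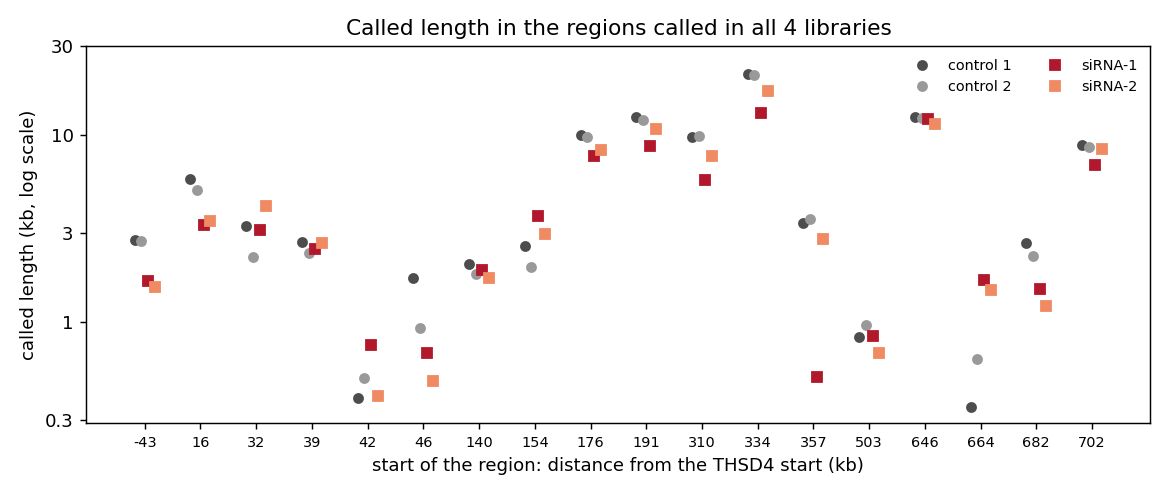
Called length (kb, log scale) in each of the 18 regions called in all 4 libraries, ordered by distance from the THSD4 start (kb), with circles for controls and squares for siRNAs. Both squares lie below both circles in 11 regions, and above them in the regions starting at 154 and 664 kb.

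The base counts show the same division. Both controls called 114 kb of the window in common, of which 27.7 kb (24.3%) was called with neither siRNA, against 12.4% over the genome. Of that 27.7 kb, 12.7 kb (45.9%) lay within kept regions, 8.83 kb (31.9%) in lost regions and 6.16 kb (22.2%) in regions called with 1 siRNA only. Bases called with both siRNAs and in neither control came to 3.66 kb, 4.88% of those called with both siRNAs, against 12.6% over the genome. The Jaccard index, the shared over the joined called bases of 2 libraries, was 0.812 between the controls and 0.745 between the siRNA libraries in the window, and 0.526 to 0.651 between a control and an siRNA library. Over the genome the same order held, at 0.765 between the controls, 0.659 between the siRNA libraries and 0.574 to 0.613 between a control and an siRNA library.

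Along the gene the regions formed 14 clusters, joined where gaps were at most 10 kb. Called length was lower in both knockdown libraries than in both controls in 8 clusters, higher in 1 and overlapping in 5. Among 28090 clusters joined in the same way over the genome, it was lower in 25.1% and higher in 25.7%, and nothing is read from the gap, since the locus was picked for lower calls. The clusters that differed most are described from the 5′ end of the gene to the 3′ end.

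**Figure D4:**
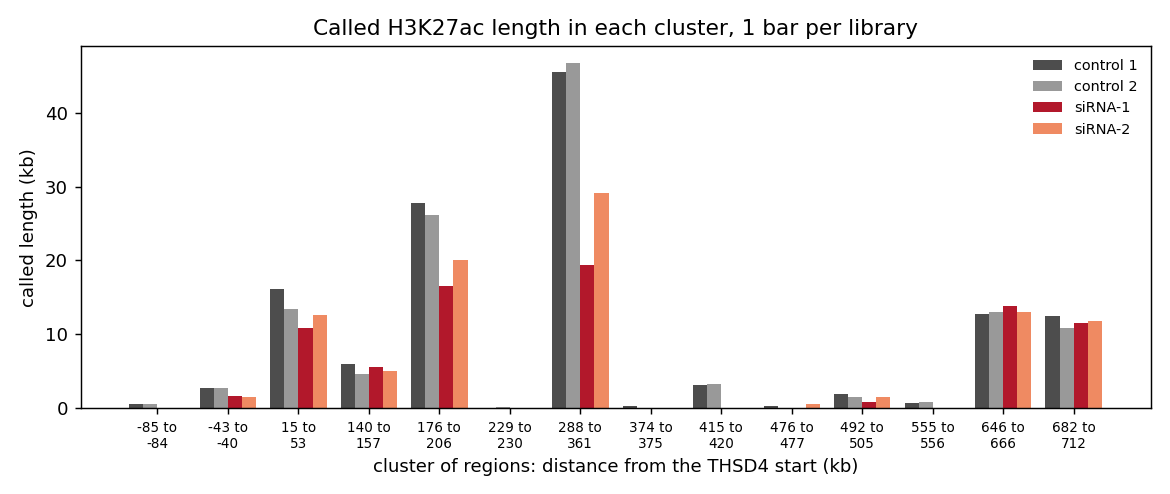
Called H3K27ac length (kb) in each of the 14 clusters of regions, with 1 bar per library, labelled by the cluster's distance from the THSD4 start (kb). The cluster at 288 to 361 kb has the longest bars and the widest gap, 45.4 and 46.7 kb in the controls against 19.4 and 29.2 kb with the siRNAs.

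Near the 5′ end, the strongest region of the cluster at 15 to 53 kb was chr15:71404790-71410714. Its best summit lay 19.4 to 19.6 kb from the THSD4 start, whose hg19 position is known here only to the nearest kb, as for every distance given from it. No RefSeq start was placed on hg19. It had 5.82 kb called in control 1, 5.09 kb in control 2, 3.32 kb for siRNA-1 and 3.47 kb for siRNA-2, with both siRNAs below both controls. Fold enrichments were 39.99 and 45.5 in the controls, 23.7 for siRNA-1 and 22.4 for siRNA-2. The region nearest to the start itself, chr15:71404207-71404455, was 249 bp long and called in control 2 only. Some 20 kb further, chr15:71427738-71430509 did not follow this pattern: 2.70 and 2.33 kb were called in the controls, 2.46 kb for siRNA-1 and 2.66 kb for siRNA-2, which overlap.

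The cluster at 176 to 206 kb had 27.8 and 26.1 kb called in the controls, against 16.5 kb for siRNA-1 and 20.0 kb for siRNA-2. Its difference of means, -8.70 kb, was 22.03% of that of the window. This share is near its share of length, since the knockdown mean was 67.7% of the control mean here and 69.0% in the window. The region chr15:71579507-71592136 was among the strongest kept regions and ranked 3 in the window in each of the 4 libraries. It had 12.5 and 12.1 kb called in the controls, 8.76 kb for siRNA-1 and 10.8 kb for siRNA-2. Its neighbour chr15:71565260-71575267 was 1 peak of 10.0 kb in control 1 and of 9.84 kb in control 2, while siRNA-1 had 2 peaks of 7.72 kb in sum and siRNA-2 1 peak of 8.36 kb.

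The cluster at 288 to 361 kb held 55.1% of the window's difference and 6 of its 15 lost regions. It also held 46.1 of the window's 127 kb of mean control length, and 17 of its 57 regions. The knockdown mean was 52.8% of the control mean in this cluster, against 69.0% in the window. The cluster had 45.4 and 46.7 kb called in the controls, against 19.4 kb for siRNA-1 and 29.2 kb for siRNA-2. The means were 46.1 ± 0.877 kb and 24.3 ± 6.89 kb (SD, n = 2 each). Peaks there numbered 16 in each control, 8 with siRNA-1 and 12 with siRNA-2. Both siRNAs were below both controls, and siRNA-1 had the shortest length.

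The 3 regions that follow make up most of that cluster, and each had less called length with both siRNAs than in both controls. The longest, chr15:71723168-71744770, had the largest decrease of length among the kept regions: 21.2 and 21.1 kb were called in the controls, 13.1 kb for siRNA-1 and 17.3 kb for siRNA-2. It was 2 peaks in each control, 4 with siRNA-1 and 6 with siRNA-2. Its main summit remained at 348 kb in all 4 libraries, enriched 45.8-fold and 46.9-fold in the controls and 64.5-fold with each siRNA.

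The region chr15:71698840-71708736 was the strongest of the window by −log10 q in both controls. Its fold enrichments, each within its own list, were 75.8 and 66.5 in the controls, 20.1 for siRNA-1 and 31.9 for siRNA-2. Its called length was 9.79 and 9.90 kb in the controls, against 5.78 kb for siRNA-1 and 7.77 kb for siRNA-2. The third, chr15:71677196-71681118, had 3.71 and 3.92 kb called in the controls, no peak for siRNA-1 and 0.532 kb for siRNA-2.

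**Figure D5:**
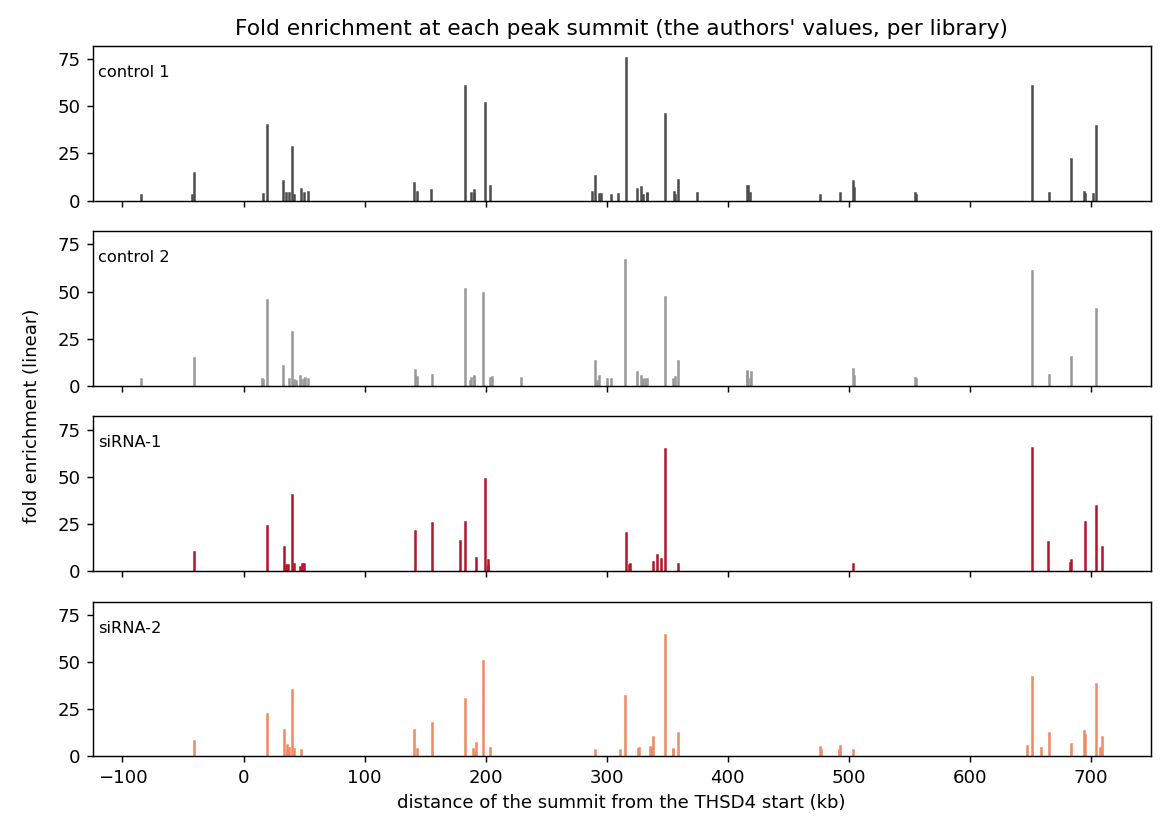
Fold enrichment (linear, the authors' values) at the summit of every peak in the window, by distance from the THSD4 start (kb), with 1 panel per library. The highest summit lies at 315 to 316 kb in both controls, near 348 kb with siRNA-2 and near 651 kb with siRNA-1. With siRNA-1 the summit near 348 kb is almost as high, at 64.5-fold against 64.98-fold.

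At the 3′ end some regions were shorter after knockdown and others longer. The cluster at 646 to 666 kb was the only one with more called length in both knockdown libraries: 12.8 and 13.0 kb in the controls, 13.8 kb for siRNA-1 and 13.03 kb for siRNA-2, a gap of a few bases between control 2 and siRNA-2. Its main region, chr15:72034994-72047868, had 12.4 kb in each control, 12.1 kb for siRNA-1 and 11.5 kb for siRNA-2, with both siRNAs below both controls. The next region, chr15:72053376-72055087, was the kept region with the largest increase, from 353 and 639 bp in the controls to 1673 bp for siRNA-1 and 1491 bp for siRNA-2, and it carried the cluster's higher sum. In the last cluster, chr15:72071271-72073912 at the end of the gene had 2.64 and 2.27 kb in the controls, against 1501 bp for siRNA-1 and 1227 bp for siRNA-2, again shorter with both. Beyond the gene, towards NR2E3, its next protein-coding neighbour in RefSeq, chr15:72082184-72085318 was called with both siRNAs (3.13 and 2.24 kb) and in control 1 (0.934 kb), and not in control 2. The last strong region, chr15:72090794-72100528, had 8.90 and 8.66 kb in the controls, 6.91 kb for siRNA-1 and 8.40 kb for siRNA-2, both below the controls.

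One more region inside the gene had more called length with both siRNAs. At 154 to 157 kb, chr15:71542656-71546401 had 2.55 and 1.97 kb called in the controls, against 3.70 kb for siRNA-1 and 2.95 kb for siRNA-2. Fold enrichments, each within its own list, were 5.83 and 5.73 in the controls, 25.6 for siRNA-1 and 17.9 for siRNA-2. Upstream of the gene, chr15:71345814-71348846 had 2.76 and 2.72 kb in the controls and 1.66 and 1.55 kb after knockdown, so shorter calls were not limited to the gene body.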

How the data were processed

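H3K27ac peak lists of 4 A549 libraries were used. The submitters' processing notes name hg19 and MACS2 2.2.7.1 beside BWA 0.7.17 and SAMtools 1.7.0; options, and any use of the 4 input libraries, are not given in these sources. The authors deposited, for each peak, a fold enrichment (a linear ratio), a −log10 p, a −log10 q and a score, called per library. The highest deposited q was 0.0498. Peaks of chromosomes 1 to 22 and X that overlapped by 1 bp or more in any lists were joined with Python 3.11.15 and NumPy 2.4.6; the merging was tested on simulated data. The window and gene span come from the stated rule. The locus, lists and settings were chosen with earlier results of these data known. Regions named by rule were the 6 strongest lost, the weakest lost, the 4 strongest kept, the kept ones whose length differed most in each direction, the gained one and the one nearest to the gene start; others were chosen after their values were seen. Lists of microfibril genes and cell type markers were not used here, since no hg19 gene annotation was at hand. RefSeq (GRCh38.p14) served for the promoter windows, the distances between their starts and the name of the next gene. No RefSeq position was placed on hg19.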

Additional observations from a re-analysis of the deposited data

How the results depend on the processing

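Lower called length after knockdown kept its direction under every setting run. The difference was -39.5 kb as reported and the same with a replicate block, by construction; it was -28.3 kb with a −log10 q of 10 or more and ranged from -47.0 to -32.0 kb without each library in turn. The difference in peaks was -16 with and without the replicate block, -0.5 at a −log10 q of 10 or more, -7.5 with called length made equal between libraries, and -21.5 to -10.5 without each library. Lost regions numbered 15, against 3 after stitching within 10 kb, where fewer units are counted, 6 at equal called length and 5 at a −log10 q of 10 or more in every list, both of which drop weak peaks; of those 5, chr15:71803813-71804851 and chr15:71805053-71805811 are among the 15, and chr15:71677196-71681118, chr15:71713693-71716006 and chr15:71891718-71892678 count as lost because their knockdown peaks are then dropped. Lost regions numbered 11 at a −log10 q of 5 or more, and also 11 with no peak allowed within 1 kb. Without each library in turn they ranged from 16 to 27. Gained regions numbered 1, against 5 with reciprocal overlap of 50% (the cause was not tested), 2 at a −log10 q of 10 or more (chr15:72053376-72055087 and chr15:72082184-72085318, whose control peaks are then dropped), 0 after stitching, at a −log10 q of 5 or more or with no peak allowed within 1 kb, and 1 to 3 without each library. Kept regions numbered 18, against 8 after stitching, and 18 to 24 without each library.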
